A study of Mus musculus with 15 samples.

Results

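Secreted antagonists of bone morphogenetic proteins (BMPs) were followed across 5 sorted mesenchymal populations of mouse thymus and lymph node. The set was given by name as 9 genes: Grem1, Sostdc1, Chrdl1, Bmper, Twsg1, Fstl1, Nog, Chrd and Fst. A gene was measured where the array annotation gave exactly 1 symbol for a transcript cluster, and that held for 7 of the 9 among 18718 such genes. Fst was listed only on a cluster that carries several symbols and Chrd on no cluster of the annotation used, so both were not analysed here.

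All cells came from C57BL/6 mice aged 2 weeks and were sorted as PDGFRβ+ after enzymatic digestion. TMC are thymic and LNMC lymph node mesenchymal cells, the latter from pooled inguinal, axillary and brachial nodes. The populations were BP3-PDPN+ TMC, PDPN- TMC, BP3-PDPN+ LNMC, BP3+PDPN+ LNMC and PDPN- LNMC, where PDPN is podoplanin and BP3 the product of Bst1. PDPN- cells were in addition sorted as Ly51+, so a contrast with them, called the podoplanin contrast below, does not separate podoplanin from Ly51. Each population was measured on 3 arrays from 3 experiments, with 3 mice per pool for thymus and 10 to 11 for lymph node, so the size of the pool and the tissue cannot be told apart. No genotype or treatment differed between the populations.

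BMPs are secreted ligands that bring together type I and type II serine/threonine kinase receptors, which phosphorylate SMAD proteins and switch on genes such as the Id family. Antagonists bind the ligand outside the cell and keep it from its receptors. Fibroblastic cells of many tissues secrete them, and Grem1 is widely used to mark reticular stroma. In the set, Grem1 and Sostdc1 are cystine-knot proteins related to DAN, Chrdl1 and Bmper carry the cysteine-rich repeats of chordin, Twsg1 is a chordin partner, Fstl1 is a relative of follistatin, and Nog encodes noggin.

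Values are deposited RMA signals on the log2 scale, with means ± SD of n = 3 arrays, and differences between populations are given on that scale ± SE from limma, fitted to all 15 arrays. Adjusted p-values are Benjamini-Hochberg values over all 18718 genes of a comparison, and a difference counts as called at an adjusted p under 0.05. The median of the whole table was 3.8. No measure of background was used, so a signal below that median need not stand above background, and a difference that starts there is a difference of signal and not a ratio of RNA. Levels are compared between populations within a gene, not between genes. The arrays of each population lay on the side of the sort that their labels give: Pdpn averaged 8.16 to 9.11 in the PDPN+ and 3.01 to 3.41 in the PDPN- populations, and Bst1 averaged 8.74 in BP3+PDPN+ LNMC and 2.18 to 3.30 elsewhere. Enpep, the gene of Ly51, averaged 7.69 to 8.07 in the PDPN- and 3.74 to 4.61 in the PDPN+ populations. Pdgfrb averaged 10.33 to 10.61 in the PDPN- and 8.94 to 9.01 in the PDPN+ populations. Replicate 1 of BP3-PDPN+ TMC stood apart: its median signal over all clusters was 3.58, and the other 14 arrays had medians of 3.77 to 3.885. Of 10 thymocyte and T cell markers 8 were measured, and their array means were 3.47 to 4.96 in BP3-PDPN+ TMC, 4.89 to 5.63 in PDPN- TMC and 2.70 to 2.93 in the LNMC. None of the 8 exceeded the table median in an LNMC population, and 7 did in each TMC population.

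Grem1, whose product gremlin 1 binds BMP2 and BMP4, separated podoplanin-positive lymph node cells from every other population. The arrays read 9.60, 9.67 and 9.67 in BP3+PDPN+ LNMC, and 7.40, 7.52 and 7.12 in BP3-PDPN+ LNMC. In the remaining populations no array exceeded 3.39: the signals were 3.17, 3.16 and 3.39 in BP3-PDPN+ TMC, 3.17, 2.94 and 2.89 in PDPN- TMC, and 3.13, 3.11 and 2.91 in PDPN- LNMC. The last 3 populations lay below the table median. PDPN- TMC overlapped BP3-PDPN+ TMC and PDPN- LNMC, which did not overlap each other. The 2 podoplanin-positive lymph node populations overlapped neither each other nor the rest. The population means spanned 6.65, a range wider than that of 99.9% of the genes tested.

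Grem1 was higher in BP3+PDPN+ than in BP3-PDPN+ LNMC by 2.30 ± 0.12 (limma, adjusted p 8.88e-10). Against PDPN- LNMC it was higher by 4.30 ± 0.12 in BP3-PDPN+ cells and by 6.6 ± 0.12 in BP3+PDPN+ cells, comparisons that share the PDPN- arrays. In thymus the same podoplanin contrast gave 0.24 ± 0.12 (adjusted p 0.172 by limma, 95% interval -0.02 to 0.50). That difference passed after cyclic loess normalization between arrays (0.49, adjusted p 0.00627; 0.00627 to 0.416 over its 12 alternatives), although both signals stay below the table median. The size of the contrast differed between lymph node and thymus by 4.06 ± 0.17 (adjusted p 5.28e-10). In these bulk populations, fewer expressing cells and less RNA per cell cannot be told apart.

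The RefSeq promoter of Grem1 is shown because the gene had the widest range of the set. It covers 250 bases before to 50 bases after the start (GRCm38.p6, chr2:113758599-113758898, minus strand), with motif matches in capitals:
Grem1: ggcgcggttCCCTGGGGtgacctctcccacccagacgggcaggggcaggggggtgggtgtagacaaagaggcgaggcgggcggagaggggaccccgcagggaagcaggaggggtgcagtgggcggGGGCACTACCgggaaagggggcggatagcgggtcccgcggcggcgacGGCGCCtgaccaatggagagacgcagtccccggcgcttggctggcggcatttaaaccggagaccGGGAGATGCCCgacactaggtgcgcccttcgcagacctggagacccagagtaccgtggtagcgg
Motifs were searched on both strands: GGCGCC, a GC-rich motif of BMP-activated SMADs, CCCNNGGG, an EBF-like pattern, and an NF-κB-like pattern (GGG, any 5 bases, CC). The Grem1 window held GGCGCC once, with its first base at -78 from the start, CCCNNGGG once at -241, and the NF-κB-like pattern 3 times, at -125, -14 and -13, the last pair overlapping. Of 32851 RefSeq promoters of this length 11.9% held GGCGCC, 13.7% held CCCNNGGG and 50.8% held the NF-κB-like pattern. The window is 70.7% G and C, against a median of 52.7% over all promoters. These matches describe the letters only.

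Sostdc1, whose product (also called ectodin or Wise) binds BMPs and modulates Wnt signalling, followed the same order at the top. Its arrays read 6.35, 6.79 and 6.89 in BP3+PDPN+ LNMC and 4.60, 4.61 and 4.21 in BP3-PDPN+ LNMC. All 9 other arrays lay between 2.16 and 2.42, below the table median. Sostdc1 was higher in BP3+PDPN+ than in BP3-PDPN+ LNMC by 2.20 ± 0.14 (limma, adjusted p 7.09e-09), and higher in BP3-PDPN+ than in PDPN- LNMC by 2.19 ± 0.14 (adjusted p 4.60e-09). In thymus BP3-PDPN+ and PDPN- cells differed by 0.17 ± 0.14 (adjusted p 0.435, 95% interval -0.13 to 0.46). The podoplanin contrast was larger in lymph node than in thymus by 2.03 ± 0.20 (adjusted p 3.86e-06).

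Chrdl1, chordin-like 1, which binds BMPs through chordin-type repeats, was highest in lymph node too, in another order. BP3-PDPN+ LNMC were highest, at 9.65, 9.28 and 9.54, and BP3+PDPN+ LNMC followed at 8.37, 8.08 and 8.17. PDPN- LNMC read 6.02, 5.57 and 4.89 and varied most, with an SD of 0.57. In thymus BP3-PDPN+ cells read 4.24, 4.74 and 4.38 and PDPN- cells 3.60, 3.60 and 3.78. No neighbouring populations in this order overlapped.

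Chrdl1 was lower in BP3+PDPN+ than in BP3-PDPN+ LNMC (-1.28 ± 0.21, limma, adjusted p 3.55e-04), the reverse of Grem1 and Sostdc1 on the same arrays. It was higher in lymph node than in thymus among BP3-PDPN+ cells (5.04 ± 0.21, adjusted p 1.24e-10) and among PDPN- cells (1.83 ± 0.21, adjusted p 2.51e-05). The tissue difference was larger in the podoplanin-positive cells by 3.20 ± 0.30 (adjusted p 2.78e-06). The thymic podoplanin contrast was 0.79 ± 0.21 (adjusted p 0.0104), and it did not pass without BP3-PDPN+ TMC replicate 2 (0.65, adjusted p 0.0504; 0.00119 to 0.0504 over its alternatives).

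**Figure D1:**
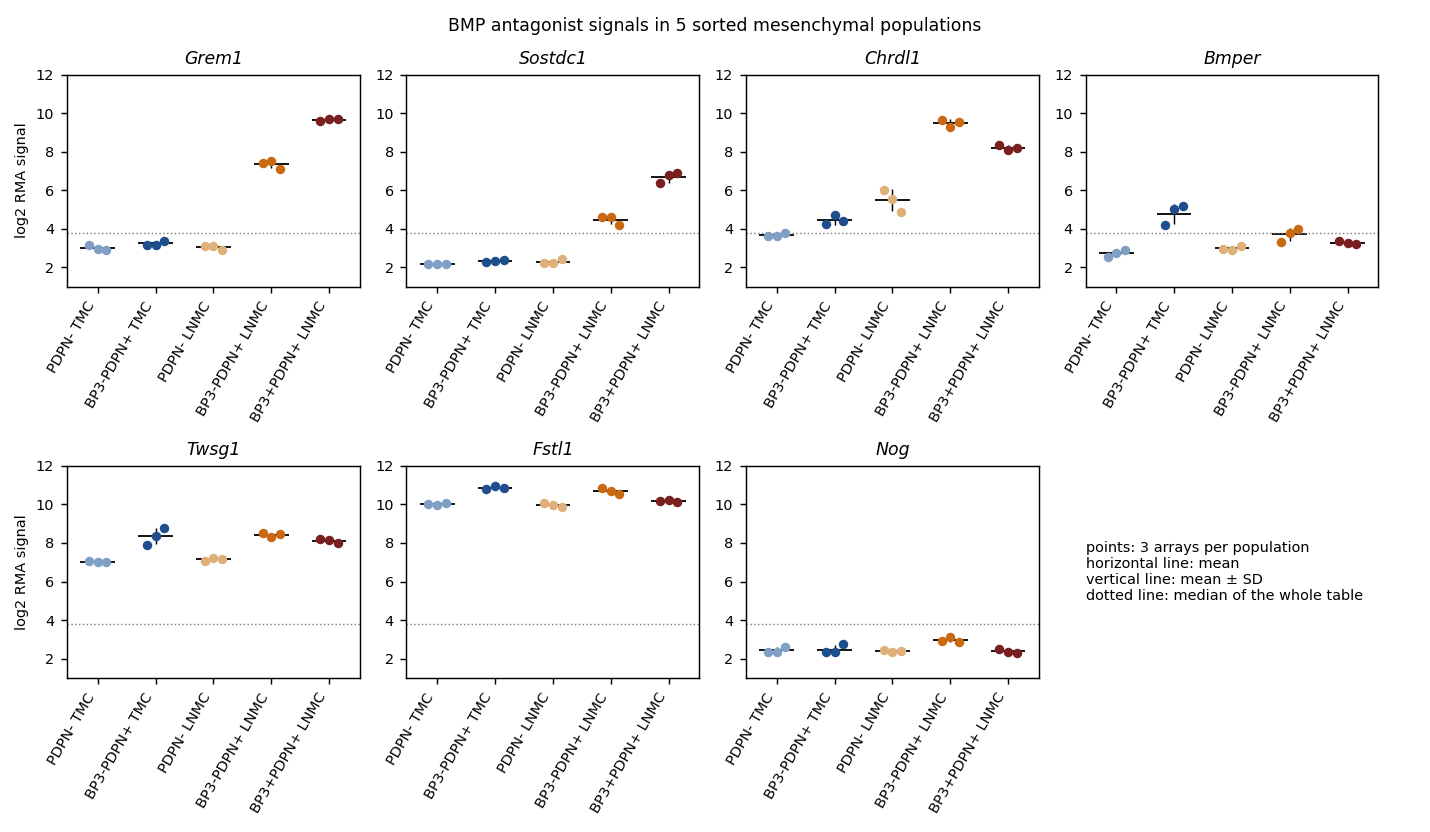
Deposited log2 RMA signal (y axis) of the 7 measured BMP antagonist genes in 5 sorted populations (x axis); points are single arrays, horizontal lines means and vertical lines ± SD (n = 3), and the dotted line is the table median of 3.8. Grem1 and Sostdc1 rise above the dotted line only in the podoplanin-positive lymph node cells, Chrdl1 is highest in BP3-PDPN+ LNMC, and Bmper averages above it only in BP3-PDPN+ TMC.

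Bmper, the relative of crossveinless-2 that can restrain or promote BMP signalling, was highest in BP3-PDPN+ TMC. Its arrays read 4.19, 5.0 and 5.16 in BP3-PDPN+ TMC and 2.54, 2.73 and 2.92 in PDPN- TMC. Lymph node signals were 3.34, 3.78 and 4.01 in BP3-PDPN+, 3.39, 3.26 and 3.19 in BP3+PDPN+ and 2.96, 2.91 and 3.09 in PDPN- cells. Only BP3-PDPN+ TMC averaged above the table median, and its low array was replicate 1. BP3-PDPN+ and BP3+PDPN+ LNMC overlapped.

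The podoplanin contrast of Bmper in thymus was 2.05 ± 0.21 (limma, adjusted p 1.08e-06), with values of 1.87 to 2.35 over its 12 alternatives, the highest without BP3-PDPN+ TMC replicate 1 and the lowest without replicate 3. In lymph node it was 0.72 ± 0.21 (adjusted p 0.0194), and this call was lost without PDPN- LNMC replicate 2 (0.69), BP3-PDPN+ LNMC replicate 2 (0.69) or BP3-PDPN+ LNMC replicate 3 (0.57), with adjusted p from 0.00732 to 0.0958 over its alternatives. Bmper was lower in BP3-PDPN+ cells of lymph node than of thymus (-1.07 ± 0.21, adjusted p 0.00185), with values of -1.37 to -0.89 at the same 2 settings and adjusted p up to 0.0359 over its alternatives. The contrast was smaller in lymph node by an interaction of -1.33 ± 0.30 (adjusted p 0.00707), opposite in sign to those of Grem1, Sostdc1 and Chrdl1. The thymocyte marker means given above also differ between these thymus populations and arrays, and their part in the Bmper values was not tested.

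The promoter of Bmper is shown beside that of Grem1 because their tissue differences have opposite signs (GRCm38.p6, chr9:23222826-23223125, plus strand, same window and capitals):
Bmper: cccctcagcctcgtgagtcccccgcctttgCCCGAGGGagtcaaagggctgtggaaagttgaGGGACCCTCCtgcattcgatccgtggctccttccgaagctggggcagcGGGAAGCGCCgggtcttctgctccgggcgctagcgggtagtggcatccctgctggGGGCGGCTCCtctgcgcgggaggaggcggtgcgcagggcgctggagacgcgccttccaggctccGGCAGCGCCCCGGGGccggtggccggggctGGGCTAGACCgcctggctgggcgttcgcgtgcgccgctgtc
This window, 72.7% G and C, held no GGCGCC, 5 matches of the NF-κB-like pattern and 2 of CCCNNGGG, at -220 and -14. The match of CCCNNGGG at -14 overlaps a match of the NF-κB-like pattern at -21. Twsg1 held 6 matches of the NF-κB-like pattern, those at -87 and -86 overlapping, and none of the others. Fstl1 held none of the 3 motifs. RefSeq promoters were matched for 4 of the 7 measured members, Grem1, Bmper, Twsg1 and Fstl1, and not for Sostdc1, Chrdl1 and Nog.

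Twsg1, twisted gastrulation, which forms complexes with BMPs and chordin, was higher in PDPN+ than in PDPN- cells of both tissues. BP3-PDPN+ TMC read 7.91, 8.37 and 8.76, BP3-PDPN+ LNMC 8.50, 8.30 and 8.44, and BP3+PDPN+ LNMC 8.18, 8.14 and 8.01. The PDPN- arrays were 7.06, 7.0 and 7.02 in thymus and 7.07, 7.24 and 7.19 in lymph node, and none reached any PDPN+ array. Twsg1 was higher in BP3-PDPN+ than in PDPN- cells by 1.32 ± 0.16 in thymus (limma, adjusted p 5.83e-06) and by 1.25 ± 0.16 in lymph node (adjusted p 1.34e-05). The 2 contrasts share no array, and their difference was -0.07 ± 0.22 (adjusted p 0.886, 95% interval -0.54 to 0.40). BP3+PDPN+ LNMC exceeded PDPN- LNMC by 0.94 ± 0.16 (adjusted p 2.13e-04). Against BP3-PDPN+ TMC, BP3+PDPN+ LNMC stood at -0.24 ± 0.16 (adjusted p 0.300), which passed without BP3-PDPN+ TMC replicate 1 (-0.46, adjusted p 0.0131) and after cyclic loess (-0.48, adjusted p 0.00563; 0.00563 to 0.903 over its alternatives).

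Fstl1, a secreted glycoprotein of the follistatin-like group, was well above the table median in every population, and its population means spanned 0.88, a range wider than that of 74.6% of the genes tested. Its arrays read 10.79, 10.97 and 10.83 in BP3-PDPN+ TMC and 10.83, 10.67 and 10.52 in BP3-PDPN+ LNMC. They read 10.19, 10.25 and 10.13 in BP3+PDPN+ LNMC, 10.00, 9.97 and 10.09 in PDPN- TMC and 10.09, 9.97 and 9.89 in PDPN- LNMC. The BP3-PDPN+ populations overlapped each other, as did the PDPN- populations, and BP3+PDPN+ LNMC lay between these pairs. BP3-PDPN+ cells exceeded PDPN- cells by 0.84 ± 0.11 in thymus (limma, adjusted p 1.00e-05) and 0.69 ± 0.11 in lymph node (adjusted p 9.93e-05). In BP3+PDPN+ LNMC the signal was lower than in BP3-PDPN+ LNMC (-0.48 ± 0.11, adjusted p 0.00350) and than in BP3-PDPN+ TMC (-0.67 ± 0.11, adjusted p 1.22e-04). Its difference from PDPN- LNMC was 0.21 ± 0.11 (adjusted p 0.175, 95% interval -0.02 to 0.43), and 0.07 after cyclic loess (adjusted p 0.695; 0.123 to 0.695 over its alternatives).

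Nog, which encodes noggin, a high-affinity BMP antagonist, stayed below the table median on all 15 arrays. BP3-PDPN+ LNMC read 2.93, 3.14 and 2.87, and the other 12 arrays lay between 2.29 and 2.74. Its differences of 0.58 ± 0.13 from PDPN- LNMC (limma, adjusted p 0.00283), 0.51 ± 0.13 from BP3-PDPN+ TMC (adjusted p 0.0103) and, taken as BP3+PDPN+ minus BP3-PDPN+ LNMC, -0.61 ± 0.13 (adjusted p 0.00259) are therefore differences among low signals. That from BP3-PDPN+ TMC did not pass without BP3-PDPN+ LNMC replicate 2 (0.43, adjusted p 0.0607) or in a fit on the arrays compared (adjusted p 0.0656; 0.00179 to 0.0656 over its alternatives).

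**Figure D2:**
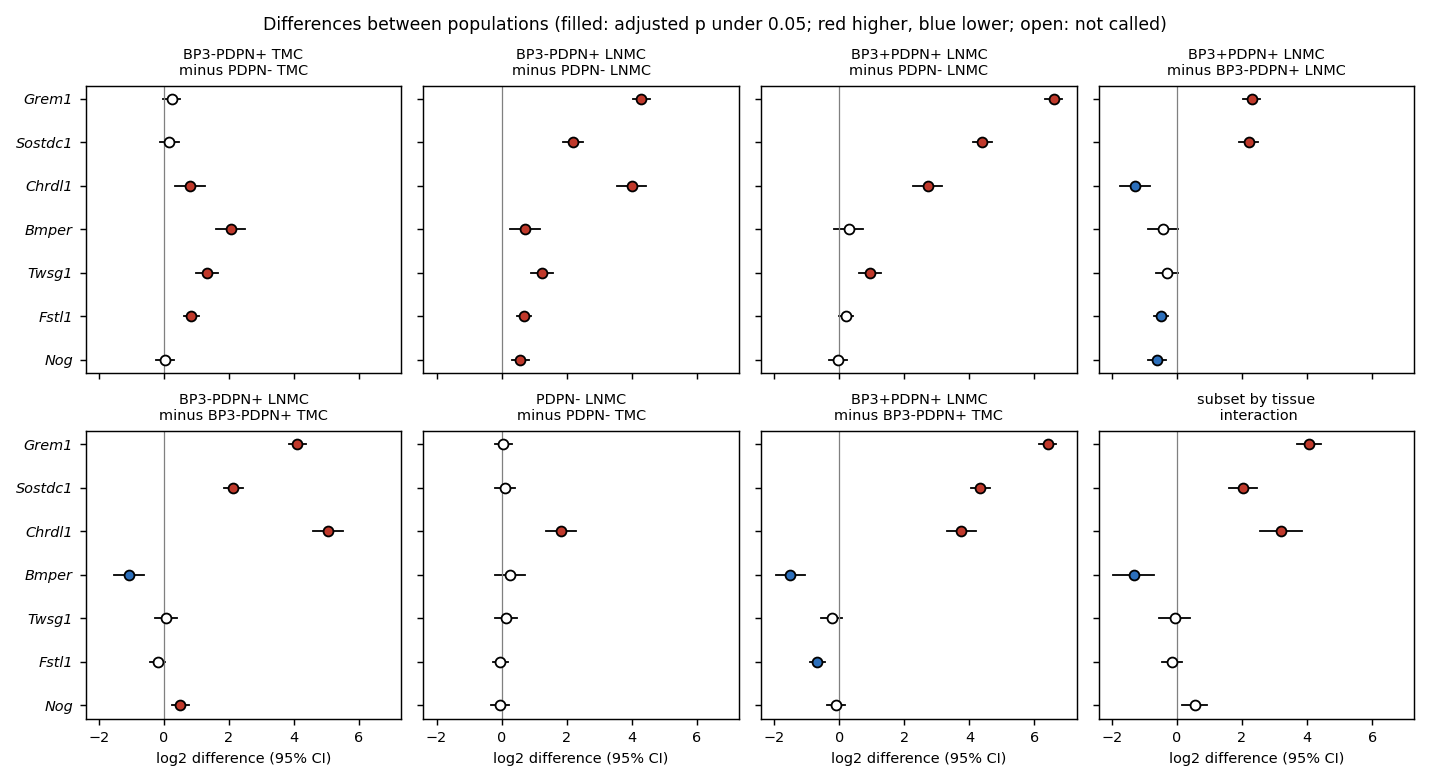
Log2 differences (x axis) with 95% intervals for the 7 genes (y axis) in 7 comparisons of populations and in the test of whether the podoplanin contrast differs between lymph node and thymus; filled points passed an adjusted p of 0.05 in limma, red higher and blue lower in the population named first. Grem1 and Sostdc1 are the red points in BP3+PDPN+ against BP3-PDPN+ LNMC, where Chrdl1, Fstl1 and Nog are blue.

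Counted over the 7 measured members, BP3-PDPN+ cells were higher than PDPN- cells for 4 in thymus and for 7 in lymph node, and for none lower. Of all genes 28.5% were called in the thymic comparison, 10.3% higher and 18.2% lower (14.5% and 11.6% after cyclic loess). In the lymph node comparison 23.1% were called, 13.4% higher and 9.79% lower. The members' median difference was 0.79 in thymus and 1.25 in lymph node, where all genes had medians of -0.05 and -0.01. The 4 thymic calls were Bmper, Twsg1, Fstl1 and Chrdl1. BP3+PDPN+ LNMC exceeded PDPN- LNMC for 4 members, Grem1, Sostdc1, Chrdl1 and Twsg1, with 27.3% of all genes called, 16.1% higher and 11.2% lower. The members were chosen with earlier results of these data known, so these counts describe the set.

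Within podoplanin-positive lymph node cells the set divided by direction. Grem1 and Sostdc1 were higher in BP3+PDPN+ cells, 2 of 7 against 8.49% of all genes, and Chrdl1, Nog and Fstl1 were lower, 3 of 7 against 7.74%, with 16.2% called in either direction. Bmper (-0.43, adjusted p 0.224 by limma; -0.62 without BP3-PDPN+ LNMC replicate 1, -0.28 without replicate 3, and adjusted p from 0.0858 to 0.582 over its alternatives) and Twsg1 (-0.30, adjusted p 0.255) had the negative sign without a call. Twsg1 passed here after cyclic loess (-0.36, adjusted p 0.0455; 0.0455 to 0.486 over its alternatives).

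Between tissues, BP3-PDPN+ LNMC were higher than BP3-PDPN+ TMC for Grem1, Sostdc1, Chrdl1 and Nog and lower for Bmper. Of all genes 17.1% were called in that comparison, 11.8% higher and 5.29% lower (7.17% and 8.40% after cyclic loess). PDPN- cells of the tissues differed for 1 member, Chrdl1, with 9.61% of all genes called, 4.42% higher and 5.19% lower in lymph node. The other 6 had differences of -0.04 to 0.26. For BP3+PDPN+ LNMC against BP3-PDPN+ TMC, Grem1 (6.41), Chrdl1 (3.75) and Sostdc1 (4.34) were higher and Bmper (-1.5) and Fstl1 (-0.67) lower. In that comparison 28.6% of all genes were called, 19.4% higher and 9.14% lower (12.1% and 13.7% after cyclic loess). The podoplanin contrast differed between tissues for 4 of 7 members, with 12.7% of all genes called: 3 members upward with 8.67% of all genes and Bmper downward with 4.05% (4.65% and 6.37% after cyclic loess).

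Some marker lists of stromal cells ordered the populations as some members did. The mean of 5 measured lymphoid stroma markers (of 6 listed) was 8.75 to 9.03 on the arrays of BP3+PDPN+ LNMC, 6.63 to 6.98 in BP3-PDPN+ LNMC and 4.09 to 5.39 elsewhere, the order of Grem1 and Sostdc1. The mean of 6 measured adventitial fibroblast markers (of 7) was 9.55 to 9.81 in BP3-PDPN+ TMC, 8.36 to 8.75 in BP3-PDPN+ LNMC, 5.69 to 5.74 in BP3+PDPN+ LNMC and 3.84 to 5.03 in PDPN- cells. The means of Fstl1 and Bmper had the same order between those populations, but not every step was called. For Fstl1, BP3-PDPN+ LNMC minus BP3-PDPN+ TMC was -0.19 (limma, adjusted p 0.258). Its difference of BP3+PDPN+ from PDPN- LNMC was 0.21 (adjusted p 0.175). The mean of 5 endothelial markers was 4.12 to 4.64 in BP3-PDPN+ LNMC, against 3.07 to 3.83 on all other arrays. Chrdl1 and, at signals below the table median, Nog were highest in the same population. In BP3-PDPN+ LNMC 3 of the 5 endothelial markers averaged above the table median, and in BP3+PDPN+ LNMC 1 did. The mean of 7 epithelial markers was 3.25 to 4.30 on the TMC arrays and 2.83 to 3.03 on the LNMC arrays. Pericyte and smooth muscle markers (8) averaged 8.92 to 9.30 in PDPN- and 5.61 to 6.88 in PDPN+ cells. No B cell marker of the 4 measured and at most 1 of 5 myeloid markers averaged above the table median in a population. The part of such cells in the members' values was not tested.

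Genes of BMP ligands were divided among the populations. Of 14 BMP ligand genes 4 were higher and 4 lower in BP3-PDPN+ than in PDPN- TMC, and 3 and 3 in lymph node, with list medians of 0.01 and -0.05. The shares of all genes were 10.3% higher and 18.2% lower in thymus, and 13.4% and 9.79% in lymph node. Bmp4 was highest in BP3-PDPN+ TMC (8.48 ± 0.10), then in BP3+PDPN+ LNMC (6.36 ± 0.29), with 4.47 ± 0.03 in PDPN- TMC, 4.07 ± 0.43 in BP3-PDPN+ LNMC and 3.00 ± 0.45 in PDPN- LNMC. In BP3+PDPN+ against BP3-PDPN+ LNMC it was higher by 2.28 ± 0.22 (limma, adjusted p 9.21e-07), the sign of Grem1 and Sostdc1. Among BP3-PDPN+ cells it was lower in lymph node than in thymus by a difference of -4.41 ± 0.22 (adjusted p 7.29e-10), the opposite sign to Grem1 and Chrdl1.

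Bmp7 averaged 5.43 ± 0.53 in BP3-PDPN+ TMC and 2.85 to 3.30 elsewhere, so Bmp4, Bmp7 and the antagonist Bmper all peaked in that population. The size of the Bmp7 difference depended on the cluster: in thymus it was 2.13 ± 0.21 (limma, adjusted p 7.75e-07), and 1.13 as the mean over all clusters of the gene (adjusted p 4.25e-06). Bmp5 marked the PDPN- cells, at 6.89 ± 0.06 in thymus and 6.46 ± 0.29 in lymph node against 2.93 to 3.77 in PDPN+ cells. Bmp3, an atypical member that can itself oppose BMP signalling, averaged 5.36 ± 0.09 in BP3-PDPN+ and 5.27 ± 0.20 in BP3+PDPN+ LNMC, 3.74 ± 0.34 in BP3-PDPN+ TMC and 2.41 and 2.46 in the PDPN- cells. Inhba, the activin βA subunit, was lowest in BP3+PDPN+ LNMC (2.97 ± 0.07) and highest in PDPN- LNMC (6.08 ± 0.09). Inha averaged 3.71 to 4.25 over the populations. Of the 5 activin subunit genes 1 was higher and none lower in BP3-PDPN+ than in PDPN- TMC, and 1 was lower and none higher in the lymph node contrast, shares near or below the 28.5% and 23.1% of all genes called there.

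Of 11 measured receptor and co-receptor genes (12 listed, Hfe2 not analysed here) 5 were higher and 1 lower in BP3-PDPN+ than in PDPN- LNMC, and 4 were higher and 2 lower in thymus. The shares of all genes were 13.4% higher and 9.79% lower in lymph node, and 10.3% and 18.2% in thymus. The type II receptor gene Acvr2a averaged 8.32 ± 0.06 in BP3-PDPN+ LNMC and 5.95 to 6.78 elsewhere. Its peak fell in the population where Chrdl1 and, at signals below the table median, Nog were highest. Acvr2a was lower in BP3+PDPN+ than in BP3-PDPN+ LNMC (-1.54 ± 0.16, limma, adjusted p 2.08e-06). The BMP co-receptor gene Rgmb was highest in BP3-PDPN+ TMC (6.69 ± 0.06). Rgma was highest in PDPN- TMC (7.44 ± 0.03), and Acvr1b in BP3+PDPN+ LNMC (5.63 ± 0.17).

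Of 14 SMAD and target genes 3 were higher and 3 lower in BP3+PDPN+ than in BP3-PDPN+ LNMC, with a list median of -0.10. In that comparison 8.49% of all genes were called higher and 7.74% lower. Between tissues, among BP3-PDPN+ cells 5 were higher in lymph node and none lower, against 11.8% and 5.29% of all genes. Among PDPN- cells 6 were higher and 1 lower, against 4.42% and 5.19% of all genes. In BP3+PDPN+ LNMC against BP3-PDPN+ TMC 6 were higher and 1 lower, against 19.4% and 9.14%. List medians were 0.26, 0.32 and 0.25 in this order. After cyclic loess the shares of all genes were 7.17% higher and 8.40% lower among BP3-PDPN+ cells. For BP3+PDPN+ LNMC against BP3-PDPN+ TMC they were then 12.1% and 13.7%. The SMAD and target list was not recounted after cyclic loess, so its counts have no direct counterpart in these shares. Id1, a target commonly read as a sign of BMP signalling, averaged 7.52 ± 0.15 in PDPN- LNMC, 6.88 ± 0.07 in PDPN- TMC, 6.87 ± 0.24 in BP3+PDPN+ LNMC, 5.84 ± 0.31 in BP3-PDPN+ TMC and 5.41 ± 0.33 in BP3-PDPN+ LNMC. It was higher by 1.46 ± 0.18 in BP3+PDPN+ than in BP3-PDPN+ LNMC (limma, adjusted p 1.46e-05), the populations with the highest and the next highest Grem1 signal. The other targets called in that comparison, Id4 (-3.62), Msx1 (-1.37) and Bambi (-0.70), were lower. Smad1 (0.65) and Smad5 (0.71) were called higher there. Id4 was near the table median in BP3-PDPN+ TMC (3.51 ± 0.21) and BP3+PDPN+ LNMC (3.53 ± 0.25) and averaged 6.42 to 7.15 in the other 3 populations. The homeobox gene Msx1 (7.77 ± 0.09) and Bambi (6.66 ± 0.04), a pseudoreceptor, were both highest in BP3-PDPN+ LNMC.

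Among 10 other measured antagonist genes 2 were higher and 1 lower in BP3-PDPN+ than in PDPN- TMC, and 1 was lower in the lymph node contrast. These shares are near or below the 28.5% and 23.1% of all genes called in either direction there. Nbl1, which encodes DAN itself, was lowest where its relatives Grem1 and Sostdc1 were highest. It averaged 4.62 ± 0.11 in BP3+PDPN+ LNMC, 6.95 ± 0.46 in BP3-PDPN+ LNMC and 8.68 ± 0.08 in BP3-PDPN+ TMC, and BP3+PDPN+ minus BP3-PDPN+ LNMC was -2.33 ± 0.18 (limma, adjusted p 8.13e-08). Crim1, a transmembrane protein with chordin-type repeats, was highest in PDPN- LNMC (8.05 ± 0.22) and lowest in BP3-PDPN+ TMC (5.26 ± 0.40). Kcp, which also carries such repeats, averaged 5.0 ± 0.04 in BP3-PDPN+ TMC and 3.45 to 3.74 elsewhere. Of the 3 genes of chordin-cleaving proteases, all were higher in BP3-PDPN+ than in PDPN- TMC and 2 in the lymph node contrast. The shares of all genes called higher were 10.3% and 13.4%. Tll1 (3.71 against 2.18 in thymus, 3.26 against 2.44 in lymph node) averaged below the table median in every population. So did Tll2 (3.55 against 2.27 in thymus), so these are differences among low signals. Bmp1 was higher by 1.08 ± 0.13 in thymus (adjusted p 5.68e-06) and 0.88 ± 0.13 in lymph node (adjusted p 6.24e-05).

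**Figure D3:**
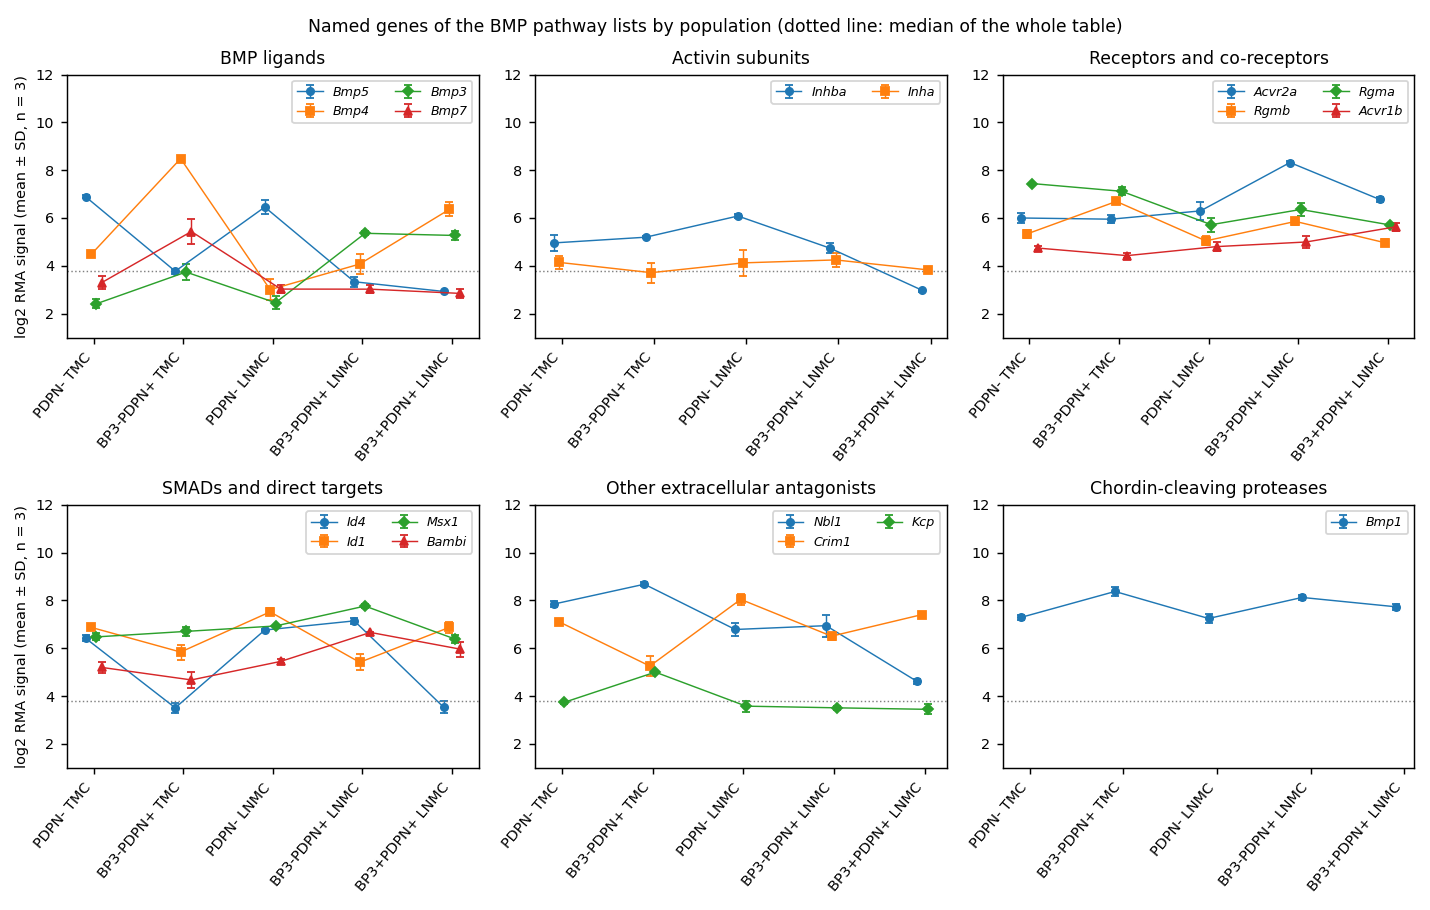
Mean log2 RMA signal ± SD of n = 3 arrays (y axis) for the named genes of 6 lists of the BMP pathway in the 5 populations (x axis); lines only join the points of a gene, and the dotted line is the table median of 3.8. Bmp4 peaks at 8.48 in BP3-PDPN+ TMC and is next highest, at 6.36, in BP3+PDPN+ LNMC, while Nbl1 is lowest there at 4.62.

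The genes most like a member were sought for the 4 members whose population means spanned at least 2. Likeness was the root mean square difference over the 15 arrays after each gene was centred on its own mean, and a small value means a like profile in these libraries only. Nearest to Grem1 were the desmosomal cadherin Dsc3 (0.61), the hedgehog-binding protein gene Hhip (0.87) and Clu, which encodes clusterin (0.87). Nearest to Sostdc1 were Crym, which encodes μ-crystallin (0.35), the lymphocyte survival cytokine Il7 (0.36), which is also on the lymphoid stroma marker list, and the protease gene Adamts20 (0.39). Nearest to Chrdl1 were the GABA receptor subunit Gabrg3 (0.56), the secretogranin Scg3 (0.67) and Gdpd2 (0.79). Nearest to Bmper were Pdzrn3 (0.26), Clmn (0.27) and Spats2l (0.28). No gene was nearest to more than 1 of these members.

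**Figure D4:**
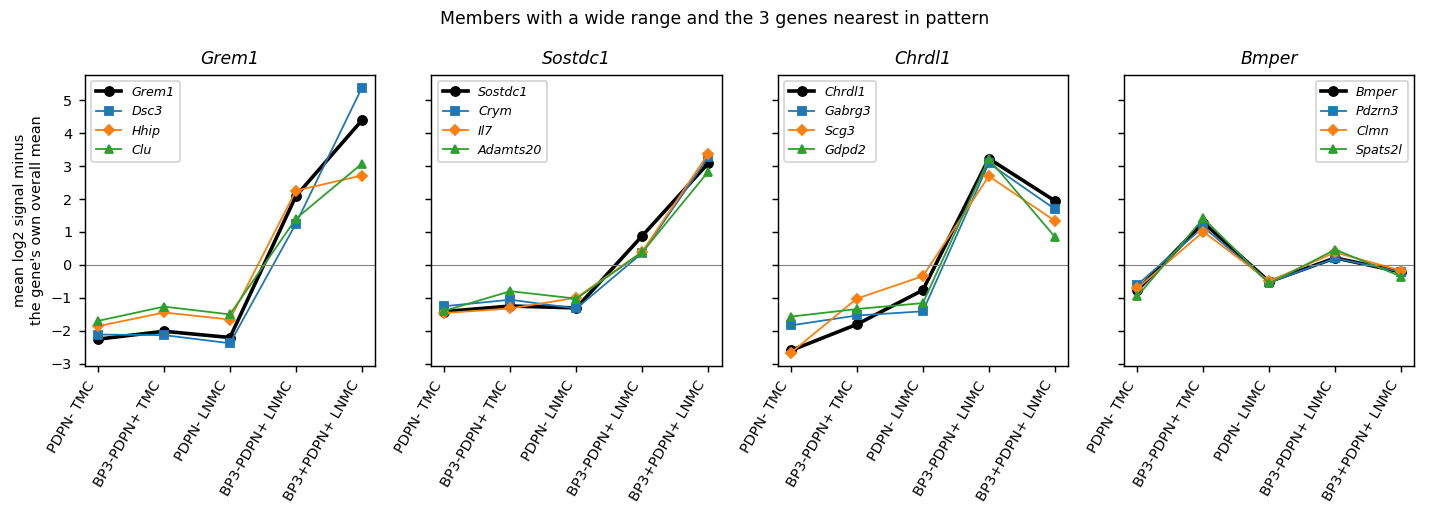
Population means of log2 signal after subtraction of each gene's mean over the 5 populations (y axis) for Grem1, Sostdc1, Chrdl1 and Bmper in black, with the 3 genes nearest in pattern to each in colour; the x axis gives the populations, and lines only join points of a gene. Dsc3 climbs further than Grem1 in BP3+PDPN+ LNMC, and the neighbours of Bmper share its single peak in BP3-PDPN+ TMC.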

How the data were processed

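Total RNA was amplified and hybridized to Affymetrix Mouse Gene 1.1 ST arrays, 1 array per sample, per the labels. The deposited values are log2 signals made by RMA in the Affymetrix Expression Console, per the submitters' processing notes, with no version given in those notes. Base 2 was inferred from the range of 1.07 to 12.07. RMA includes quantile normalization, so levels are relative to the other arrays. Of 24758 transcript clusters 20844 had 1 symbol, 1735 several and 2179 none listed. The cluster with the highest mean was kept per gene, which left 18718 genes without a filter.

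With limma 3.58.1, the 5 population means were estimated from all 15 arrays in R 4.3.3 (residual degrees of freedom 10, prior 5.50), and the code was tested on simulated data. The number of arrays limits the precision. Labels call the arrays biological replicates and do not say that a number marks a shared experiment, so replicate numbers were not treated as pairs. Same-numbered arrays were checked for shared deviations from their population means, and in none of the 7 comparisons did all 3 pairs correlate above 0.1. That cut cannot exclude a shared experiment. In BP3+PDPN+ against BP3-PDPN+ LNMC same-numbered arrays correlated at 0.06 to 0.15, and every array correlated best with its own number. All 9 members were named. From each pathway list up to 4 genes with the smallest adjusted p over the populations and a mean above the table median in a population were named. Smad1, Smad5, Tll1 and Tll2 were named outside this rule. Genes most like a member were the 3 nearest, without predicted genes, small RNAs, antigen receptor segments or chemosensory (olfactory, vomeronasal) receptors. The members and lists were chosen with earlier results of these data known. Sequences came from RefSeq tables.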

Additional observations from a re-analysis of the deposited data

Results flagged for a closer look

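For 4 members the podoplanin contrast (BP3-PDPN+ minus PDPN-) differed between lymph node and thymus in a limma interaction test over 18718 genes. Grem1 differed by 4.06 ± 0.17, Chrdl1 by 3.20 ± 0.30 and Sostdc1 by 2.03 ± 0.20, each larger in lymph node and called under every alternative run. Bmper differed by -1.33 ± 0.30, larger in thymus, with values of -1.63 to -1.14 over its 18 alternatives and adjusted p from 1.64e-04 to 0.0246. Bmper averaged above the table median only in BP3-PDPN+ TMC. The interaction of Nog, 0.55 ± 0.18, did not pass (adjusted p 0.0573) and passed after cyclic loess (0.57, adjusted p 0.0482), under an intensity-trended, robust prior (adjusted p 0.0408) and without BP3-PDPN+ TMC replicate 3 (0.69, adjusted p 0.0124; 0.0124 to 0.15 over 17 alternatives), at signals below the table median.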

How the results depend on the processing

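The alternatives were cyclic loess, a trended and robust prior, a fit on the compared arrays alone, the mean over all clusters of a gene, a filter on low values, the replicate number as a block, and leaving out each array. Of 56 pairs of member and comparison 35 were called, 32 of them with the same sign under all alternatives run; Chrdl1 in thymus, Bmper in lymph node and Nog between tissues lost the call under at least 1, with values in the report. None of the 35 changed sign. Of the 21 pairs not called, 4 passed under at least 1. Sign changes affected uncalled differences: after cyclic loess Twsg1 in BP3-PDPN+ LNMC minus TMC went from 0.07 to -0.13 and Fstl1 in PDPN- LNMC minus TMC from -0.04 to 0.011. With an array left out, Twsg1 in the former ranged from -0.15 to 0.27 and its interaction from -0.29 to 0.13. Nog ranged from -0.11 to 0.11 in the thymic contrast, -0.0933 to 0.0117 in BP3+PDPN+ minus PDPN- LNMC, -0.0867 to 0.0433 between PDPN- cells and -0.17 to 0.0383 in BP3+PDPN+ LNMC minus BP3-PDPN+ TMC. Between PDPN- cells Grem1 ranged from -0.005 to 0.14 and Fstl1 from -0.09 to 0.01. The filter left 10660 genes and dropped Nog. With the replicate block the counts of members called were as in the main fit in all comparisons (4, 7, 4, 5, 5, 1, 5 and, for the interaction, 4). In BP3+PDPN+ against BP3-PDPN+ LNMC every array correlated best with its own number, a hint from the data and not from the design. Calls over all genes divided differently after cyclic loess: lower calls were 64.0% of the thymic contrast and then 44.5%, 30.9% and then 53.9% between BP3-PDPN+ cells, 32.0% and then 53.1% for BP3+PDPN+ LNMC against BP3-PDPN+ TMC, and 31.8% and then 57.8% for the interaction. These shares also depended on BP3-PDPN+ TMC replicate 1, the array that stood apart. Without it they were 52.5%, 45.4%, 43.0% and 44.5% in the same order. Without replicate 2 or 3 of that population they moved the other way. Signals near or below the table median limit what is said of Nog, of Grem1 and Sostdc1 outside podoplanin-positive LNMC, and of Bmper outside BP3-PDPN+ TMC.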
